A study of Mus musculus with 10 samples.

Results

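The genes of the blood vessel wall and of the blood-brain barrier were followed from mouse cerebellum into medulloblastoma, a malignant tumour of the cerebellum. The members were 42 listed genes, 24 of endothelial cells, 9 of the barrier and 9 of mural cells, which are the pericytes and smooth muscle cells around the endothelium. They were found as probe sets whose annotation names that gene and no other. In this way 40 of the 42 genes had 66 probe sets, out of 18193 genes and 45137 probe sets in all. Ly6c1 and Ly6a had none, since the Ly6c1 probe set also names Ly6c2. The tissue came from mice that carried both CAGGS-CreER and R26-SmoM2 and received tamoxifen on postnatal day 10, with 1 mg for each 40 g of weight. SmoM2 is an activated form of the Hedgehog receptor protein Smoothened, and CreER is a recombinase switched on by tamoxifen. CAGGS is a promoter active in most cell types, so the driver itself does not restrict recombination to one lineage. The tumours and the cerebellum beside them shared this genotype and treatment. The labels call that cerebellum wild type. The sources used here give neither the age at collection nor whether animals were pooled. On each of the Affymetrix chips 430A and 430B there were 3 tumour arrays and 2 cerebellum arrays, described by the labels as biological replicates.

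Brain capillaries are built of endothelial cells joined by tight junctions, with pericytes embedded in their basement membrane. VEGF acting on endothelial receptor kinases drives their growth, and angiopoietins acting on Tek set how stable they are. WNT signals from neural cells induce the barrier, which holds molecules back through junction proteins and efflux pumps and admits nutrients through carriers.

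The arrays showed the tissues their labels name. All 4 tested precursor markers were higher in the tumours (Atoh1, Gli1, Mycn and Mki67), and all 7 tested markers of mature granule neurons and Purkinje cells were lower. Array medians of log2 intensity lay within 0.0729 on 430A and 0.0544 on 430B. Log2 values are log2(intensity + 16) throughout, and a fold change on that scale understates the change of dim probe sets. That matters here, because 42 of the 56 member probe sets of 430A lay below the middle level of the chip. The dimmest 25% of probe sets by mean were not tested, which removed 14 of 56 member probe sets on 430A and 2 of 10 on 430B. For counts, 1 probe set stood for each gene, and 33 of the 40 genes kept one.

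Most vessel genes did not differ by the test. Of the 33 tested genes 2 rose in the tumours, Sox18 and Abcg2, and 6 fell, Flt1, Plvap, Ocln, Slco1a4, Vtn and Mcam, at an adjusted p below 0.05 in limma. These are 6.06% and 18.2% of the tested members, beside 10.7% and 16% of all 14702 genes, and in either direction 24.2%, beside 26.8%. The share of members called was thus near or below that of genes in general. Counted by probe set, 2 of 42 were higher and 8 lower on 430A, beside 13.1% and 19% of all, and 0 of 8 higher and 1 lower on 430B, beside 7.85% and 9.77%. The median log2 fold change of tumour over cerebellum was -0.14, against -0.05 over all genes, and 78.8% of tested members lay below 0, against 55.1%. All 3 tumours were above both cerebellum samples in 3 members and below in 12. This is 9.09% and 36.4%, beside 22.2% and 30.1% of all genes. For each of the 25 tested members that did not pass, the 95% interval of the log2 fold change lay within 1 unit of 0. This holds for the probe set that stood for the gene. A brighter probe set of Angpt1 on 430B had an interval from -0.07 to 1.24. In pieces of tissue, fewer cells of a type and less RNA per cell cannot be told apart. The labels do not say from how many animals the replicates came, so p-values cover the spread among these samples alone, and some of it may be technical.

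**Figure D1:**
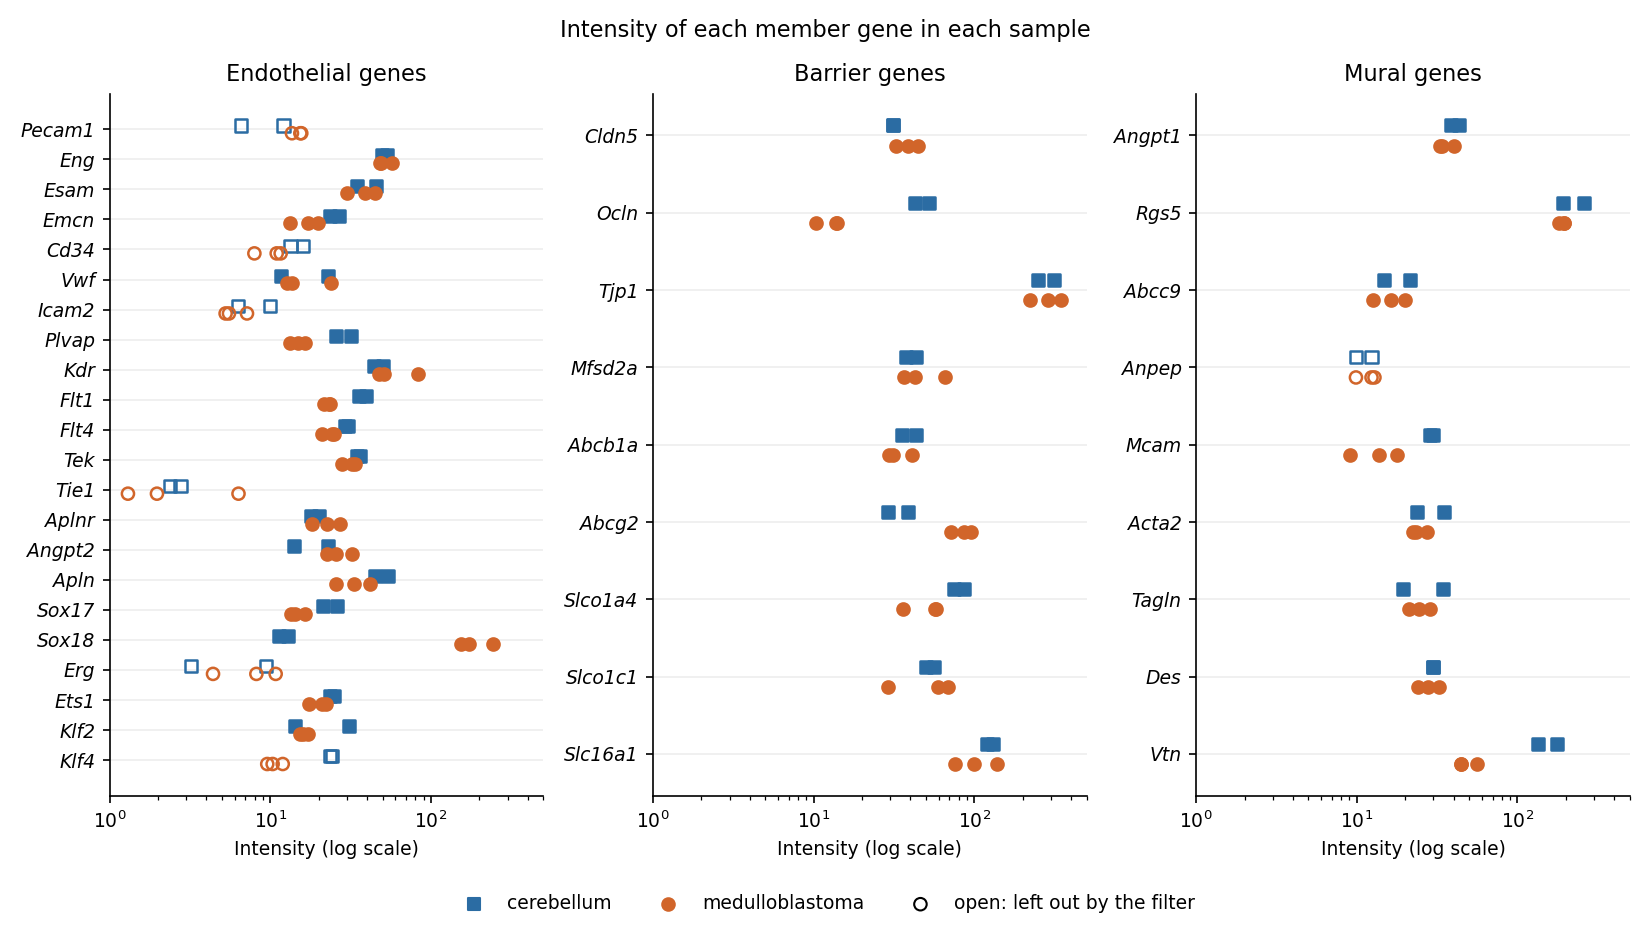
Intensity (log axis) of the 40 measured member genes in the 2 cerebellum samples (squares) and the 3 medulloblastomas (circles), 1 probe set per gene, with open symbols for the 7 genes left out by the filter on low values. Sox18 and Abcg2 lie to the right in all tumours and Ocln, Vtn and Mcam to the left, while the symbols of most other genes overlap.

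**Figure D2:**
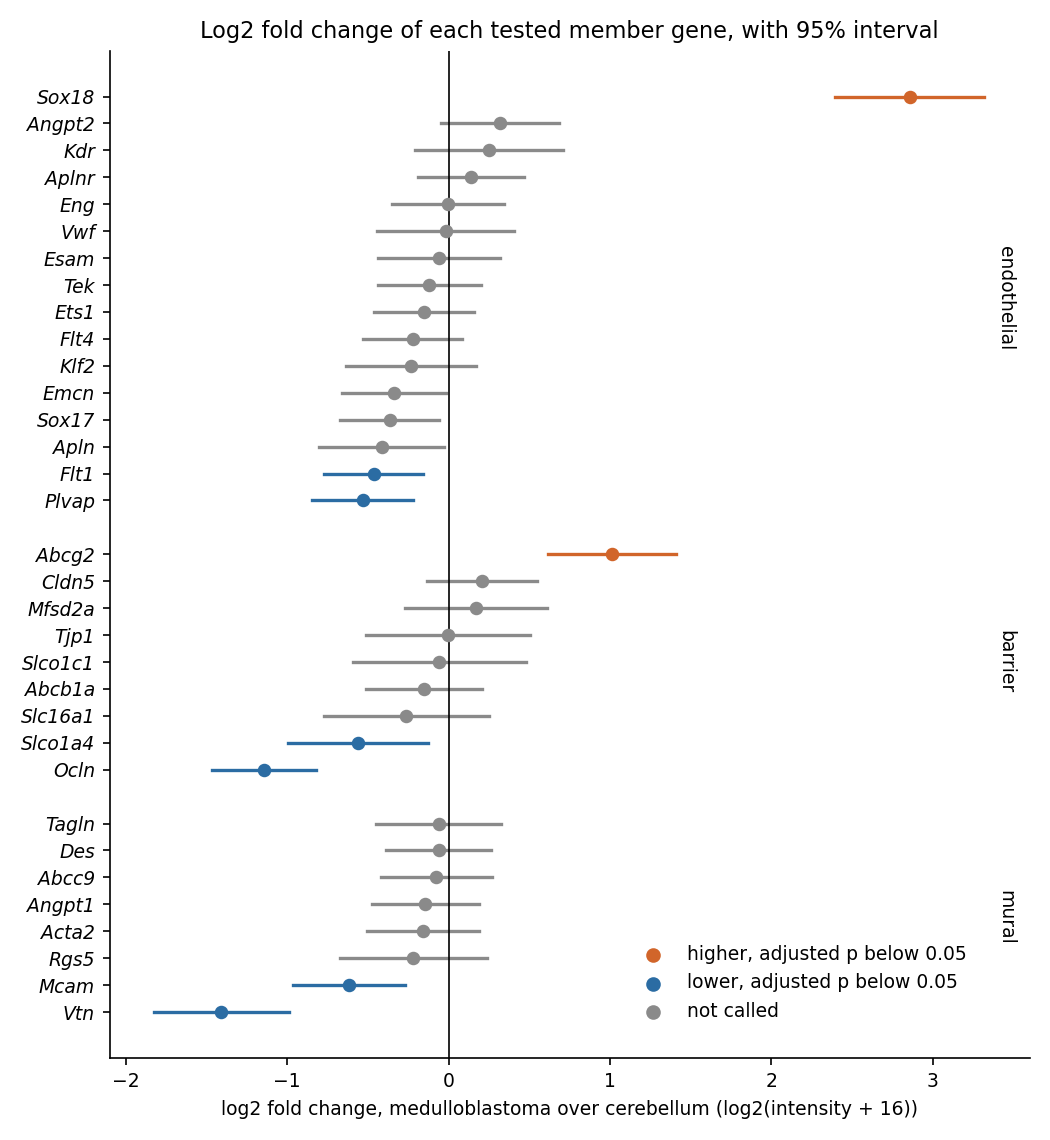
Log2 fold change of medulloblastoma over cerebellum (points) with 95% intervals (lines) for the 33 tested member genes, by class. The interval of Sox18 lies above 2, and those of the 25 grey genes stay within 1 unit of 0.

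Among the endothelial genes Sox18 stood apart. Sox18 is a transcription factor of the SOXF group that acts in endothelial and lymphatic differentiation. Its intensity in cerebellum was 12.8 and 11.3, and the tumours read 244, 154 and 173. Every tumour was thus far above both cerebellum samples. The log2 fold change was 2.86 ± 0.21 (SE), with an adjusted p of 2.79e-06. Both cerebellum values lay below 15.9, the mean level under which 430A probe sets were left out, so Sox18 was tested only because the tumours were high. Its level in cerebellum is of unknown standing, and the size of the difference is set by the pseudocount, at 3.85 with 1 and 1.73 with 64. A single probe set reports Sox18. Its close relative Sox17 read 13.4, 14.3 and 16.4 in the tumours and 25.9 and 21.1 in cerebellum on its tested probe set, the other way round. The difference was -0.37 ± 0.14 and did not pass (adjusted p = 0.0692), and this probe set has a suffix that marks possible cross-hybridisation.

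The genes that define endothelial cells did not follow Sox18. Kdr, the main signalling receptor for VEGF, read 51.2, 83.4 and 47.5 in the tumours and 50.4 and 44.1 in cerebellum. Tumour 2 was high and the groups overlapped, and the log2 difference was 0.25 ± 0.21 (95% interval -0.21 to 0.71, adjusted p = 0.413). Tek, the angiopoietin receptor, read 28.1, 32.0 and 33.7 against 36.2 and 34.5. Its tumours were slightly below cerebellum, by -0.12 ± 0.14 (95% interval -0.44 to 0.20, adjusted p = 0.588). Esam, an adhesion protein of endothelial junctions, read 30.2, 44.8 and 38.6 against 45.4 and 34.8 (-0.06 ± 0.17, adjusted p = 0.836). Eng, a TGF-beta co-receptor, read 48.7, 57.0 and 48.2 against 53.5 and 49.3 (-0.004 ± 0.16, adjusted p = 0.989), and its second probe set had 0.14 (adjusted p = 0.592). In both genes the ranges of the tumours and the cerebellum samples overlapped.

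Eng was not among the defining markers chosen. Cldn5 was, and is given with the barrier genes, where all tumours were slightly higher without a call (0.21, adjusted p = 0.359). The other 2 defining markers were among the members too dim to test. Pecam1, the adhesion molecule that marks endothelium, read 15.4, 15.6 and 13.6 in the tumours and 12.1 and 6.55 in cerebellum. Every tumour was above both cerebellum samples, and with no filter on low values it was not called (0.29, adjusted p = 0.167). Tie1, a receptor related to Tek, read 1.97, 6.34 and 1.30 against 2.38 and 2.76. Cd34 (7.96 to 11.6 against 13.4 and 15.9), Icam2 (5.27 to 7.16 against 6.30 and 9.94) and Erg (at most 10.8 in any sample) were as dim. Klf4, a transcription factor of quiescent endothelium that other cells also make, read 12.0, 10.3 and 9.57 in the tumours and 24.3 and 23.6 in cerebellum on the brighter of its probe sets. All tumours were below both cerebellum samples. With no filter on low values, Klf4 differed by -0.59 ± 0.12 (adjusted p = 0.00742) and was the only endothelial gene of the 6 left out that was called then. No member was at 0 in any sample, the lowest value being 1, and values at the lower end are of unknown standing, since the files used here hold no measure of detection.

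Among the receptors Flt1 fell. Flt1 is a VEGF receptor that binds the ligand tightly and signals weakly, so that it limits the supply to Kdr. Its representative probe set read 23.1, 23.6 and 21.5 in the tumours and 35.5 and 39.4 in cerebellum, and a second read 12.0, 24.1 and 9.53 against 48.9 and 37.5. In both, every tumour was lower. The log2 fold changes were -0.46 ± 0.14 (adjusted p = 0.0252) and -0.95 ± 0.20 (adjusted p = 0.00354). The other 2 probe sets gave -0.26 and -0.39 without passing (adjusted p = 0.326 and 0.115). The representative probe set lost its call without cerebellum 1 (-0.52), cerebellum 2 (-0.41), tumour 1 (-0.47) or tumour 3 (-0.44). It also lost it with the replicate number as a block (-0.44, adjusted p = 0.0532). Tumour 3, alone of its number, does not enter the fold change of that fit. The second probe set kept its call without any 1 sample. Flt4, the receptor for VEGF-C, had probe sets at -0.22 (adjusted p = 0.268) and 0.11 (adjusted p = 0.645), of opposite sign. On the first it read 25.01, 24.1 and 21.1 in the tumours and 30.5 and 29.3 in cerebellum, and on the second 14.8, 16.6 and 20.9 against 18.3 and 11.8. Aplnr, the apelin receptor, had 0.14 (adjusted p = 0.55).

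Plvap builds the diaphragms of fenestrated and leaky vessels, and barrier vessels normally lose it. It fell, with 13.4, 16.4 and 14.9 in the tumours and 25.5 and 32.0 in cerebellum. No tumour reached the lower cerebellum sample. The log2 fold change was -0.53 ± 0.14 (adjusted p = 0.0141). It was -0.43 without cerebellum 2 and -0.50 without tumour 1, where it no longer passed, and -0.90 and -0.23 with pseudocounts of 1 and 64. Of the 4 tested markers of the choroid plexus, whose vessels are fenestrated, Ttr and Kcnj13 were lower. Folr1 (adjusted p = 0.662) and the representative probe set of Clic6 (adjusted p = 0.801) were not called. Another Clic6 probe set was called lower (-0.996, adjusted p = 0.00129), at 18.1, 13.3 and 10.1 in the tumours and 45.7 and 40.7 in cerebellum. The summed 430A intensity of that list was 83.8 to 101 in the tumours and 157 and 394 in cerebellum. Without Ttr it was 42.1 to 59.6 and 62.8 and 50.9, so the groups overlapped. That remainder holds Kl and Folr1 alone, since Kcnj13 and Clic6 were measured on 430B. The part of these markers in the result for Plvap was not tested.

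The ligands did not pass. Angpt2, which growing endothelium secretes and which can oppose Angpt1, read 25.5, 22.4 and 32.1 in the tumours and 14.0 and 22.8 in cerebellum (0.32 ± 0.17, adjusted p = 0.183). Apln, the apelin peptide of sprouting tip cells, read 33.3, 41.6 and 25.6 against 54.3 and 44.9. All tumours were lower, by -0.42 ± 0.18 (adjusted p = 0.0979), and without tumour 2 the difference was -0.53 with an adjusted p of 0.0206. The remaining tested endothelial genes were Emcn (-0.34), Klf2 (-0.23), Ets1 (-0.15) and Vwf (-0.02), with adjusted p from 0.108 to 0.957. Klf2 read 15.4 to 17.2 in the tumours and 14.3 and 31.0 in cerebellum, and Vwf 12.8 to 23.8 against 11.6 and 23.0. The sign of both turned when cerebellum 2 was left out (0.09 and 0.23), and that of Vwf, which lay near 0, turned under several other settings. The 3 tested probe sets of Ets1, a vascular transcription factor, ran from -0.15 to 0.39, and the highest passed only with equal array medians (0.44, adjusted p = 0.0346) or quantile normalization (0.42, adjusted p = 0.044).

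Of the 9 barrier genes, all tested, 1 rose and 2 fell (11.1% and 22.2%, beside 10.7% and 16% of all genes). The tight junction genes split. Ocln encodes occludin, a membrane protein of the junction strand. It read 13.7, 10.3 and 14.0 in the tumours and 52.0 and 42.8 in cerebellum on 430A, and 23.0, 24.4 and 19.1 against 45.7 and 40.5 on 430B. The highest tumour was well under the lower cerebellum sample on each chip, and on 430A all tumours lay below the level of 15.9. The log2 fold changes were -1.14 ± 0.15 (adjusted p = 1.26e-04) and -0.63 ± 0.14 (adjusted p = 0.0101). With the lowest 50% left out or the brightest probe set of a gene, the 430B probe set stood for Ocln. The 430A value was -1.83 and -0.54 with pseudocounts of 1 and 64. The 430B probe set lost its call without cerebellum 1 or cerebellum 2, but the 430A probe set kept it without any 1 sample. Cldn5, the claudin that dominates the junctions of brain endothelium, read 32.8, 44.7 and 38.8 in the tumours and 31.3 and 31.3 in cerebellum. All tumours were slightly higher, by 0.21 ± 0.15, which did not pass (95% interval -0.13 to 0.54, adjusted p = 0.359). Tjp1, the scaffold protein beneath the junction, read 222 to 345 in the tumours and 250 and 314 in cerebellum (-0.002 ± 0.23, adjusted p = 0.996).

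Since Ocln was called and Cldn5 was not, the 250 bases before their start sites are shown. Those of the mural genes Vtn, which was called lower, and Rgs5, which was lower without a call, are added. These differences in call were not themselves tested. The bases are from RefSeq on GRCm38.p6, 5′ to 3′ on the strand of the gene. Cldn5 is at chr16:18776597-18776846 on the + strand, Ocln at chr13:100552719-100552968 on the - strand (its outer start), Rgs5 at chr1:169655251-169655500 on the + strand and Vtn at chr11:78498870-78499119 on the + strand. Capitals mark matches, on either strand, to a motif of the ETS (AGGAAG), SOX (AACAAT), KLF (GGGTGTG) or GLI (TGGGTGG) factors.
Cldn5: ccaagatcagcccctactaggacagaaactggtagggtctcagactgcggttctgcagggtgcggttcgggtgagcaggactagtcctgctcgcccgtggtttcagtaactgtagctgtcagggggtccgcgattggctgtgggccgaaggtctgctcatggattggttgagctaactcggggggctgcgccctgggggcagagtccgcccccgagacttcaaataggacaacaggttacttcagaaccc
Ocln: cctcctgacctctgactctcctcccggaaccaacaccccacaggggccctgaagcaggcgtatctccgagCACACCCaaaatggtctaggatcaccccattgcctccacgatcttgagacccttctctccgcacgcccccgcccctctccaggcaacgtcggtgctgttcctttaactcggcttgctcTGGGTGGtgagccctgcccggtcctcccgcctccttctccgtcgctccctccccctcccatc
Rgs5: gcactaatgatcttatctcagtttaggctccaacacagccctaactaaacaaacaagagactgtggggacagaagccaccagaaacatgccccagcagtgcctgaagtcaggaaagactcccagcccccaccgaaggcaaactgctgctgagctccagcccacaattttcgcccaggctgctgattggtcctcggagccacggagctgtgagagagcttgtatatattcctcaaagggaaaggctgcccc
Vtn: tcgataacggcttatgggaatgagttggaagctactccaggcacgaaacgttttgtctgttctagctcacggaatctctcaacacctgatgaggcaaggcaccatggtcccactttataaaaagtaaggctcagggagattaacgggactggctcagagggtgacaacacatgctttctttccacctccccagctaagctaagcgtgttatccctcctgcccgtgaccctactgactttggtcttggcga
The Ocln window held 1 KLF match, 180 to 174 bases before the start, and 1 GLI match, 62 to 56 bases before it, and the other 3 windows held none. RefSeq promoters were found for 29 members, with 35 start sites, and Sox18 was not among them. The ETS motif was in 40% of the member windows and 29.5% of all 32851 windows. The shares were 11.4% and 9.42% for SOX, 5.71% and 6.93% for KLF and 17.1% and 8.11% for GLI. None of the motifs contains another, though the KLF and GLI motifs share a run of G and T. These matches describe letters in a window and say nothing of binding.

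Among the barrier transporters Abcg2 rose and Slco1a4 fell. Abcg2 is an efflux pump of the luminal membrane that also marks some stem cells and early erythroid cells. It read 95.7, 71.2 and 85.9 in the tumours and 28.9 and 38.5 in cerebellum. Every tumour was well above both cerebellum samples, by 1.01 ± 0.18 log2 units (adjusted p = 0.00123). The difference was 0.60 with a pseudocount of 64. Abcb1a, the P-glycoprotein pump of the same membrane, read 31.3, 29.6 and 41.2 against 35.4 and 43.7 (-0.15 ± 0.16, adjusted p = 0.532). So 1 of these pumps was called and the other was not, a difference that was not itself tested. The red blood cell markers Hba-a1 and Alas2 had -0.02 (adjusted p = 0.943) and -0.13 (adjusted p = 0.586).

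Slco1a4, an organic anion carrier, read 57.6, 36.1 and 56.7 in the tumours and 86.8 and 74.4 in cerebellum. All tumours were lower, by -0.56 ± 0.20 (adjusted p = 0.0481), at the edge of the threshold. The call ended without any 1 of the 5 samples, with log2 fold changes from -0.65 to -0.40 and adjusted p from 0.0546 to 0.268. It also ended with a pseudocount of 1, equal array medians, quantile normalization, no trend or no filter, at adjusted p from 0.0508 to 0.0865. Slco1c1, the thyroxine carrier, read 59.7, 29.2 and 68.5 against 55.8 and 50.1, and Slc16a1, a lactate carrier, read 99.9, 75.5 and 138 against 131 and 120. In both, tumour 2 was lowest and tumour 3 highest, and neither passed (-0.06, adjusted p = 0.891, and -0.26, adjusted p = 0.449). Mfsd2a, a lipid carrier that keeps transcytosis low, read 43.0, 66.0 and 36.8 against 37.7 and 43.3 on 430B (0.17 ± 0.20, adjusted p = 0.642).

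Of 9 mural genes 8 were tested, and none rose and 2 fell (25%). Of all genes 10.7% rose and 16% fell. Vtn, or vitronectin, is a matrix protein that pericytes secrete in the brain. It read 56.1, 44.6 and 44.8 in the tumours and 135 and 177 in cerebellum, and its second probe set 22.0, 18.6 and 24.8 against 58.1 and 70.6. All tumours were below both cerebellum samples in each. The log2 fold changes were -1.41 ± 0.19 (adjusted p = 1.75e-04) and -1.09 ± 0.15 (adjusted p = 2.59e-04), and both were called without any 1 sample. Mcam, the adhesion molecule CD146, is found on both mural and endothelial cells. It read 13.8, 17.7 and 9.11 against 29.8 and 28.4, again with every tumour lower (-0.62 ± 0.16, adjusted p = 0.0108). It was -0.60 without cerebellum 1 and -0.64 without cerebellum 2, where it did not pass, and -1.09 and -0.26 with pseudocounts of 1 and 64.

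The other mural genes were not called. All 8 tested genes of the class lay below 0 on their representative probe sets, with a median of -0.15, beside 55.1% of all genes below 0. Not all of these signs held. Abcc9, Acta2, Des and Tagln rose above 0 in some fit with 1 sample left out, to at most 0.06, 0.02, 0.007 and 0.19. Rgs5, a G protein regulator that marks pericytes, had 4 probe sets between -0.50 and -0.22, none of which passed. The representative one read 181, 195 and 196 in the tumours and 260 and 192 in cerebellum, so the groups overlapped (-0.22 ± 0.21, adjusted p = 0.479). The lowest read 126, 123 and 124 against 187 and 177, with no overlap (-0.50 ± 0.18, adjusted p = 0.062), and was called without tumour 2 (-0.49, adjusted p = 0.0369) or with no trend (adjusted p = 0.0287). With the replicate number as a block another Rgs5 probe set was called lower (-0.46, adjusted p = 0.0492). Abcc9, a subunit of the pericyte potassium channel, gave -0.08 on 430A and 0.07 and 0.49 on 430B. Acta2 and Tagln, contractile proteins of smooth muscle, had -0.16 (adjusted p = 0.505) and -0.06 (adjusted p = 0.837), and Des, or desmin, -0.06 (adjusted p = 0.804). Acta2 read 22.4 to 27.5 in the tumours and 23.7 and 35.1 in cerebellum. Its 430B probe set had the opposite sign (0.21, adjusted p = 0.4), at 13.1, 16.3 and 14.7 in the tumours and 10.5 and 10.7 in cerebellum. Anpep, a pericyte peptidase, was too dim to test, at 9.88 to 12.9 in all samples. Angpt1, the Tek ligand made by mural and other cells, had -0.14 ± 0.15 on 430A (adjusted p = 0.527) and 0.58 ± 0.29 on 430B (adjusted p = 0.226). On 430B it read 155, 104 and 75.6 in the tumours and 89.6 and 48.2 in cerebellum. Without tumour 3 that probe set of Angpt1 (0.80, adjusted p = 0.0126) and the higher Abcc9 probe set of 430B (0.70, adjusted p = 0.00294) were called. Both were also called with the replicate number as a block, a fit in which tumour 3 does not enter the fold change. The sign for both genes differed between the chips.

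**Figure D3:**
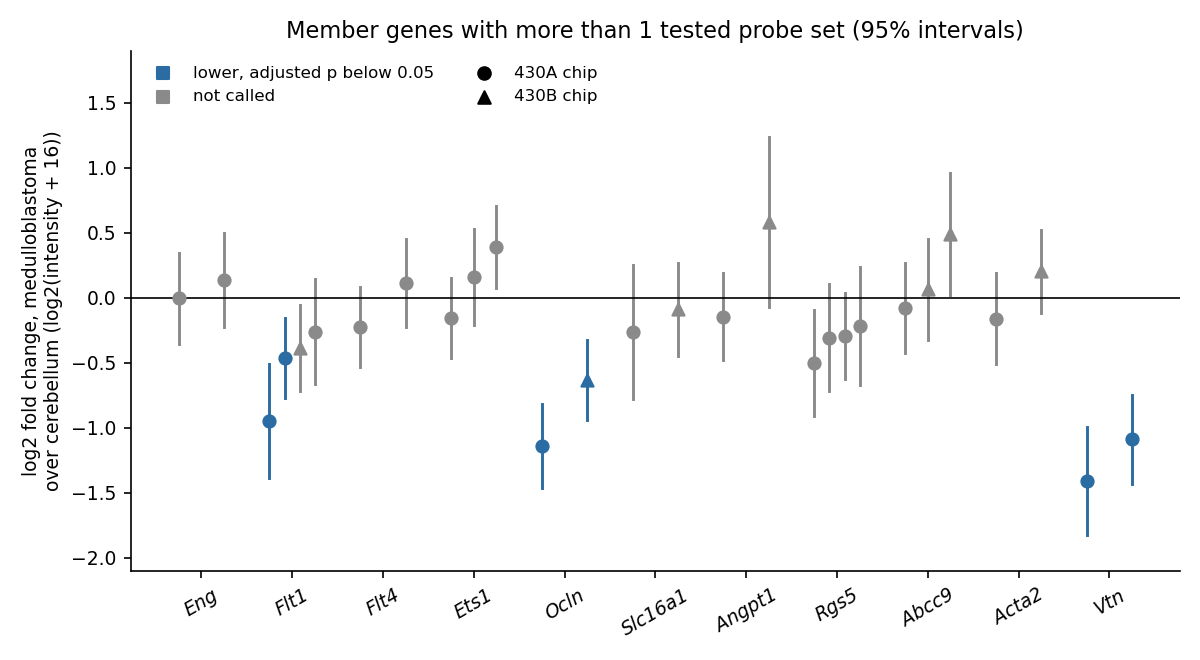
Log2 fold change (points) with 95% intervals (lines) of each tested probe set for the 11 member genes that have more than 1, with circles for 430A and triangles for 430B. Both probe sets of Ocln and of Vtn were called lower, 2 of 4 for Flt1, and Angpt1 and Abcc9 lie on both sides of 0.

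The tumours differed among themselves in vessel genes. On 430A tumour 2 was the highest of the 3 in 13 of 22 tested endothelial probe sets (59.1%), beside 38.4% of all tested probe sets, and Kdr is an example. It was the lowest in 6 of 8 barrier probe sets (75%) and 7 of 12 mural probe sets (58.3%), beside 38.7% of all. Probe sets of 1 gene share a transcript, and these shares were not tested. The median distance from the cerebellum mean over endothelial probe sets was 0.0009 log2 units in tumour 2, -0.15 in tumour 1 and -0.15 in tumour 3. Over barrier probe sets it was -0.44, -0.26 and 0.17 in the same order on 430A. Over the 3 tested on 430B it was -0.32, -0.04 and -0.10, so the tumour numbered 3 was above cerebellum on 430A alone. The labels do not say that 1 replicate number is the same tumour on both chips. Over mural probe sets the median distance was -0.32, -0.25 and -0.19 on 430A. Over the 4 tested on 430B it was 0.41, 0.46 and 0.11, where the order and the sign were different. Tumour 2 also had the lowest summed intensity of the astrocyte list, 757 beside 1499 and 1535. The same held for the perivascular fibroblast and meninges list, 683 beside 1160 and 1436. It was lowest in the leukocyte and microglia (604) and choroid plexus (83.8) lists as well. In the precursor (1979), mature granule neuron (1988), Purkinje cell (421) and red blood cell (93.7) lists it was highest. The part of these cells in the order of the tumours was not tested.

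Other vessel genes, from 5 lists, were tested in the same fit. Of 60 genes tested 6 rose (10%) and 9 fell (15%), near the shares of 10.7% and 16% of all genes. In VEGF and PDGF signalling 1 of 7 rose and 1 fell. Vegfa, the main ligand of Kdr and Flt1, read 18.2, 19.1 and 23.0 in the tumours and 57.9 and 56.7 in cerebellum, all tumours far lower (-1.02 ± 0.14, adjusted p = 2.47e-04). Pgf, a ligand of Flt1, rose by 0.48 ± 0.15 (adjusted p = 0.0342) from 12.2 and 13.3, both below the level of 15.9, to 20.0 to 30.8. It did not pass with tumour 1, tumour 3, cerebellum 1 or cerebellum 2 left out (0.37, 0.52, 0.45 and 0.51) or with no trend (adjusted p = 0.0568).

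Of 22 other endothelial genes 3 rose and 2 fell (13.6% and 9.09%, beside 10.7% and 16% of all genes). Calcrl, the receptor for adrenomedullin, rose on 1 of 3 probe sets (1.73 ± 0.37, adjusted p = 0.00379), at 141, 42.3 and 148 against 21.3 and 15.9. Foxf2, a forkhead factor best known in brain pericytes, was counted in this list and rose by 0.58 ± 0.15 (adjusted p = 0.0113), from 8.66 and 10.6 to 21.1, 18.8 and 27.1. Its cerebellum values were below the level of 15.9, so it too was tested only through the tumours, and it missed the threshold without either cerebellum sample (0.52 and 0.63). Slco2a1, a prostaglandin carrier, rose by 0.57 ± 0.15 (adjusted p = 0.0134) on 1 of 3 tested probe sets. The brightest had the opposite sign (-0.31, adjusted p = 0.282), at 74.1, 81.5 and 81.5 against 101 and 101. The call was lost without cerebellum 1 (0.50), cerebellum 2 (0.64) or tumour 1 (0.49). S1pr1, a lipid receptor of endothelium and astrocytes, fell by 1.70 (SE 0.16, adjusted p = 1.36e-05), from 108 and 126 to between 21.7 and 26.6. Ahnak fell on 1 of 4 probe sets (-0.62, adjusted p = 0.00589), and not without cerebellum 1 (-0.57). Cdh5, the cadherin of endothelial junctions, had 0.09 (adjusted p = 0.727), and Robo4 and Clec14a 0.03 (adjusted p = 0.914) and 0.04 (adjusted p = 0.86). Ptprb was not called on its representative probe set (-0.06, adjusted p = 0.796). Its 430B probe set was called lower (-0.64, adjusted p = 0.0147), at 38.2, 29.9 and 33.9 in the tumours and 58.0 and 65.8 in cerebellum.

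WNT genes of brain vessels included 3 that fell and 1 that rose of 9 (33.3% and 11.1%, beside 16% and 10.7% of all genes). The ligands Wnt7a (-1.32 ± 0.18, adjusted p = 2.26e-04) and Ndp (-0.64 ± 0.15, adjusted p = 0.00803) fell with the Ndp receptor Fzd4 (-0.66 ± 0.17, adjusted p = 0.0122). Wnt7a read 22.3, 29.9 and 17.3 in the tumours against 69.7 and 94.1. Ndp had -0.52 without cerebellum 1 and Fzd4 -0.46 without cerebellum 2, and neither passed there. Apcdd1, a WNT-induced inhibitor, rose by 1.27 ± 0.16 (adjusted p = 9.86e-05) and was called on 3 of 5 tested probe sets. Its brightest probe set was not called (0.31, adjusted p = 0.312). Of 11 other barrier genes 1 rose and 2 fell (9.09% and 18.2%, beside 10.7% and 16% of all genes). Slc2a1, the glucose carrier, fell on all 3 probe sets, at 39.8, 31.6 and 58.0 against 136 and 151 on the representative one (-1.45 ± 0.21, adjusted p = 2.68e-04), and -0.80 with a pseudocount of 1, where another probe set stood for it. Bsg, a partner of lactate carriers, fell by 1.11 (adjusted p = 0.025), from 385 and 922 to between 217 and 357. Its cerebellum samples lay far apart, and the log2 fold change was -1.72 without cerebellum 1, -0.49 without cerebellum 2 and -0.96 without tumour 3, with no call in the last 2, nor with quantile normalization (-0.76, adjusted p = 0.0784). Slc7a5, a carrier of large neutral amino acids, rose by 1.56 ± 0.22 (adjusted p = 2.62e-04). Of 11 other mural genes, 1 was called (9.09%, beside 26.8% of all genes). This was Gucy1b1, a subunit of the nitric oxide receptor, which fell by 1.51 (adjusted p = 1.1e-04). Gucy1a1 was not called on its representative probe set (-0.17, adjusted p = 0.486), but 1 of its 2 tested probe sets was called lower. Kcnj8, the partner of Abcc9, was not called (0.31, adjusted p = 0.507), and neither was Notch3 (-0.36, adjusted p = 0.0881).

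Several of these genes are not made by vessels alone. Slco1a4, Slc2a1, S1pr1, Vegfa, Ndp and Klf4 are also known from glia or neurons. Of the 5 astrocyte markers 4 were lower. The other, Gfap, was higher in all tumours on each of 3 probe sets, and 1 of these was called (1.37, adjusted p = 0.0215). The summed intensity of that list was 757 to 1535 in the tumours and 8101 and 8808 in cerebellum. Of 4 tested leukocyte and microglia markers 3 were higher (Tyrobp by 2.04, Aif1 by 1.12 and Ptprc by 1.06 log2 units), and the list summed to 604 to 679 in the tumours and 386 and 459 in cerebellum. Of 6 tested perivascular fibroblast and meninges markers, Pdgfra rose by 2.58 and Ptgds fell by 4.52 log2 units. Both are also made by other brain cells, and Dcn (0.46, adjusted p = 0.263), Lum (0.13, adjusted p = 0.728) and Col1a2 (-0.32, adjusted p = 0.252) did not pass. That list summed to 683 to 1436 in the tumours and 5839 and 7165 in cerebellum. Ptgds alone set this order, since without its probe sets the sums were 592 to 1114 in the tumours and 350 and 362 in cerebellum. No marker of these lists was at 0 in any sample. Their part in the results for the vessel genes was not tested.

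**Figure D4:**
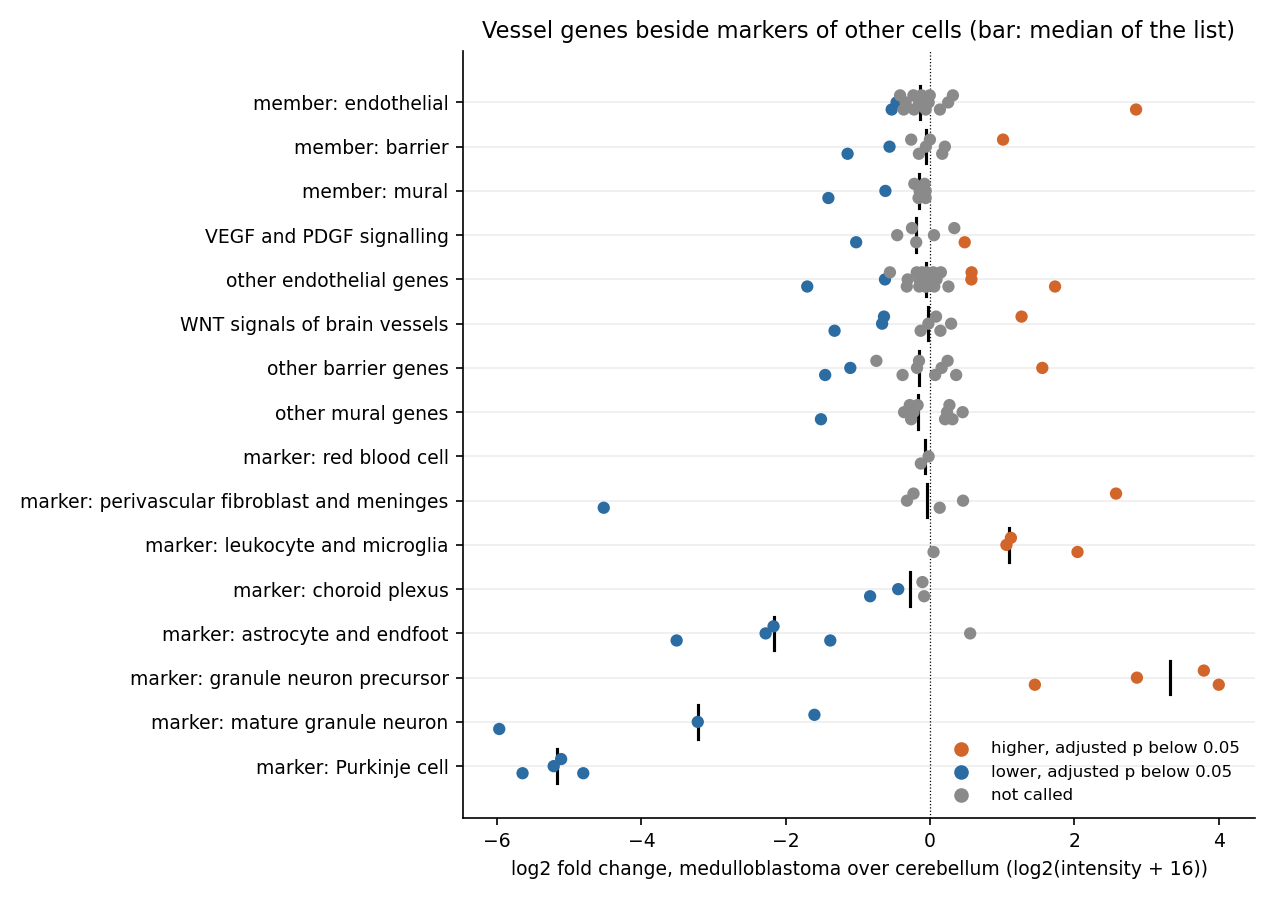
Log2 fold change of medulloblastoma over cerebellum for each tested gene (point) of the 3 member classes, 5 further vessel lists and 8 lists of other cell markers, with a bar at the median of each list. The medians of the vessel lists lie between -0.19 and -0.02, those of the precursor and Purkinje cell markers at 3.33 and -5.16.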

How the data were processed

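Medulloblastomas (3 arrays a chip) and adjacent cerebellum (2 arrays a chip) were measured on the chips 430A and 430B, 10 arrays in all. Trizol total RNA was biotinylated and hybridised by the Affymetrix procedure, per the labels' protocols. The deposited values are intensity on a linear scale, 1 per probe set and array, and the sources used here do not name the authors' software, scaling or background treatment.

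Groups came from the sample titles. Intensities were transformed to log2(value + 16) and not normalized further. The dimmest 25% of probe sets by mean stayed out, and each chip was fitted alone, with no joining of arrays between chips, in limma 3.58.1 (R 4.3.3; lmFit, eBayes with an intensity trend, two-sided). Adjusted p-values are Benjamini-Hochberg over the 16969 and 16883 tested probe sets, and a call needs less than 0.05. Gene names are those of the platform annotation. A gene was represented by 1 probe set, from 430A where possible, without an _s_at or _x_at suffix where possible, and of the highest mean. Full values were given for members past the test. Of the defining markers and the members whose probe sets disagree, some have fold changes alone, among them Des, Tagln, Abcc9 and Ets1. Among other vessel genes, those past the test were named, up to 4 a direction and list. Further genes without a call, such as Cdh5 and Notch3, were chosen after their values were seen. The members and lists were chosen with earlier results of these data known. The fit was tested on simulated data. Alternatives changed 1 choice at a time: no filter on low values or one of 50%, pseudocounts of 1 and 64, no trend, equal array medians, quantile normalization, a replicate block, leaving out each replicate, a log2 limit of 1, an adjusted p below 0.01, 430B scaled on the 100 probe sets of both chips, and other choices of probe set. Figures used matplotlib 3.10.9.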

Additional observations from a re-analysis of the deposited data

How the results depend on the processing

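With 2 cerebellum samples and mostly dim probe sets, small differences were beyond the reach of the test, and with 1 cerebellum sample left out the lone one is assumed to vary like the tumours. The rises of Sox18 and Abcg2 and the falls of Ocln and Vtn kept their direction and call under every alternative run that keeps the threshold and sets no limit on the fold change, though Ocln had -0.63 in place of -1.14 with the lowest 50% left out or the brightest probe set, where its 430B probe set stood for it. The counts of endothelial, barrier and mural genes that rose stayed at 1, 1 and 0 there. With the lowest 50% left out, the lower members numbered 2 probe sets on 430A, 0 endothelial genes and 1 mural gene, and 3 other vessel genes rose. At an adjusted p below 0.01 there were 4 lower probe sets on 430A, 0 on 430B, 0 endothelial, 1 barrier and 1 mural gene lower, and 3 other vessel genes higher. With a log2 limit of 1 these were 3, 0, 0, 1, 1 and 3. Barrier genes that fell numbered 1 with a pseudocount of 1, no trend, no filter, equal array medians or quantile normalization. Slco2a1 turned to -0.31 with the lowest 50% left out or the brightest probe set, where another probe set stood for it. Leaving out 1 replicate gave 4 to 9 lower probe sets on 430A, 0 to 2 higher and 0 to 1 lower on 430B, 0 to 3 endothelial, 1 barrier and 1 to 2 mural genes lower, and 3 to 10 other vessel genes higher. The labels give replicate numbers but no pairing, and deviations of same-numbered samples correlated at -0.03 and 0.17 on 430A and 0.11 and 0.02 on 430B. With the replicate block 2 member probe sets were higher on 430B and 1 endothelial gene fell, and over all genes 2135 rose and 2698 fell, against 1575 and 2358. Tumour 3 is alone of its number, so the block takes it out of the fold changes. These are then the same as with tumour 3 left out, and the block is no separate check of them.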
